A study of Mus musculus with 10 samples.

Results

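The genes described here are 8 receptors through which steroid hormones, or compounds that resemble them, could act in fat precursor cells. They are the estrogen receptors Esr1, Esr2 and Gper1, the progesterone receptor Pgr, the glucocorticoid receptor Nr3c1, the mineralocorticoid receptor Nr3c2 and the estrogen-related receptors Esrra and Esrrg. They were taken by name from a list of steroid receptors that bisphenols may bind, by a rule that uses no measured value, although earlier results of these data were known when they were chosen. The 8 stand among 32903 genes with a transcript in the deposited table, and 5 of them (Esr1, Pgr, Nr3c1, Nr3c2 and Esrra) had enough counts to be tested among 14597 genes. Both groups were preadipocytes, the precursors of fat cells, of iSAT (inguinal subcutaneous fat) from male WT C57 BL6 mice. DMSO, the vehicle, was given alone for 5 libraries and with 2.5 µM BPS (bisphenol S, an analogue of bisphenol A) dissolved in it for the other 5, so DMSO is common to all 10. The sources used here give neither the age of the mice nor the exposure time, nor whether replicates were separate animals or dishes, so every p-value measures only the spread between these libraries.

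Esr1, Esr2, Pgr, Nr3c1 and Nr3c2 encode nuclear receptors that bind their steroid and then regulate genes from hormone response elements in DNA. Gper1 encodes a receptor of the cell membrane that has been linked to rapid estrogen signalling. Esrra and Esrrg resemble the estrogen receptors in sequence but bind no natural estrogen, and they drive genes of mitochondrial energy metabolism together with the PGC-1 coactivators. In adipose tissue, glucocorticoids acting through Nr3c1 promote the differentiation of preadipocytes, and estrogen acting through Esr1 restrains fat mass.

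The libraries held 38200573 to 42314795 estimated counts in DMSO and 37920689 to 42717227 in BPS. Of the 9 preadipocyte markers all were tested, and their summed level was 24200 to 25800 CPM (counts scaled to a library of 1e6 counts) in DMSO and 23400 to 26300 CPM in BPS. Most of that sum is Col1a1 (means 21820 and 21910 CPM). Of the 9 markers 2 were called higher, against 3.06% of all tested genes. These were Cd34, from 45.2 to 54.9 CPM (edgeR adjusted p = 0.000429), and Thy1, from 848.1 to 968.1 CPM (edgeR adjusted p = 0.00129). Log2 fold changes were above 0 for 4 of the 9 and below 0 for 5, against 50.2% of all tested genes above 0. Pdgfra went from 903.8 to 863.3 CPM (log2 fold change -0.066) and was not called (edgeR unadjusted p = 0.00532, adjusted p = 0.0777). The 5 adipocyte markers, Adipoq, Plin1, Lep, Cidec and Retn, summed to 0.0838 to 0.228 CPM in DMSO and 0.0502 to 0.169 CPM in BPS, and Lep was at 0 in all libraries. Macrophage markers (6 genes, 4 tested) summed to 9.41 to 15.3 and 10.3 to 18.2 CPM, with Csf1r at 0 in all libraries, and the 5 endothelial markers to 17 to 22.4 and 16.4 to 22 CPM. The 5 mural markers summed to 1040 to 1110 CPM in DMSO and 1340 to 1440 CPM in BPS, and Acta2 alone had means of 1037 and 1339 CPM of it. All 5 mural markers had positive log2 fold changes, against 50.2% of all tested genes. Acta2 and Cspg4 passed the test, and Rgs5, Myh11 and Kcnj8 did not. Of the 5 mesothelial markers 2 were tested and 1, Krt19, passed it, with a log2 fold change of 0.27, while that of the other, Wt1, was -0.59 (unadjusted p = 0.0187, edgeR adjusted p = 0.155). They summed to 9.06 to 11 CPM in DMSO and 11 to 12.9 CPM in BPS, and Msln and Upk3b were at 0. Library numbers in the labels place DMSO before BPS, so a batch that follows them and the treatment cannot be told apart. In RNA from whole cultures, fewer cells of a type and less RNA per cell cannot be told apart either.

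In these preadipocytes 4 of the 8 receptor mRNAs were abundant (Nr3c1, Pgr, Esrra and Esr1), 3 were scarce (Nr3c2, Esr2 and Gper1) and Esrrg was not counted. Levels of different genes are compared per length, as CPM per kilobase of the most counted transcript that has a GENCODE vM21 match. On that scale Nr3c1 had a median of 19.8 over the 10 libraries (13.9 to 21.9), and its lowest library exceeded the highest of any other member. Esrra followed at 8.33 (5.57 to 9.62), Esr1 at 6.44 (5.48 to 6.9) and Pgr at 5.27 (4.76 to 6.28). The ranges of Esrra and Esr1 overlapped, and Esrra was the higher in 7 of 10 libraries. The ranges of Esr1 and Pgr overlapped too, but within each library Esr1 was the higher, in 10 of 10. The place of Esr1 rests on a transcript of 2612 bases. Divided by 6339 bases, the length of its longest matched transcript, its median was 2.65 (2.26 to 2.84), below every library of Pgr.

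A wide gap separated these receptors from the scarce ones. Nr3c2 had a median of 0.0708 CPM per kilobase (0.0525 to 0.0787), Esr2 0.0583 (0.0437 to 0.132) and Gper1 0.0298 (0 to 0.055). The range of Esr2 overlapped that of Nr3c2, which was the higher in 8 of 10 libraries, and that of Gper1, which was the lower in 10 of 10.

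**Figure D1:**
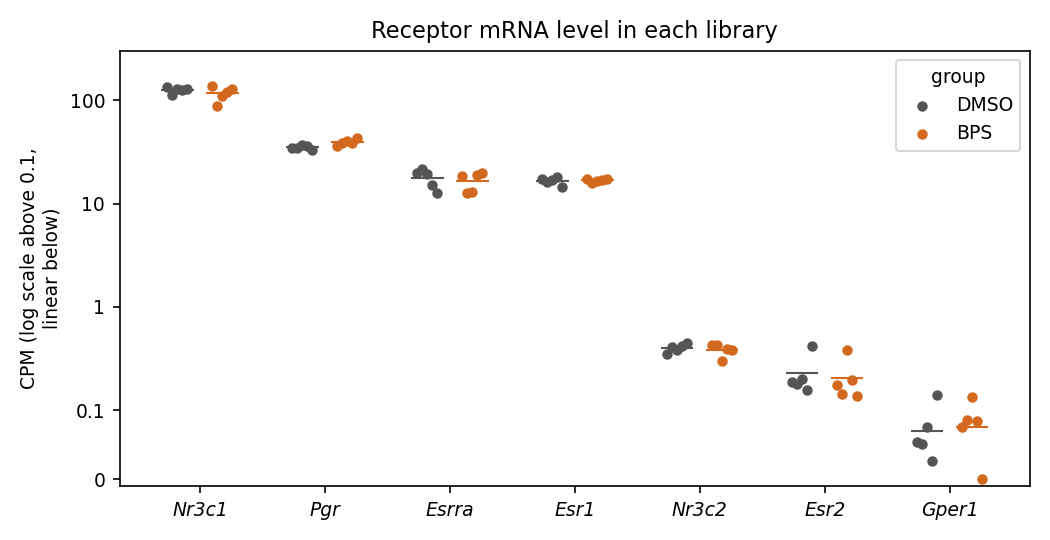
Level of 7 receptor mRNAs in each library, in CPM (vertical axis, logarithmic above 0.1 and linear below); each point is 1 library, grey for DMSO and orange for BPS, and horizontal lines are group means of 5 libraries. Esrrg is left out because it had 0 counts in every library. Nr3c1, Pgr, Esrra and Esr1 lie above 10 CPM in all 10 libraries, while Nr3c2, Esr2 and Gper1 lie below 1 CPM.

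Esr1 encodes estrogen receptor alpha, the receptor through which most effects of estrogen on adipose tissue run. Of its 12 RefSeq transcripts in the deposited table, 5 matched a GENCODE transcript. These 5 begin near 2 places 98.2 kb apart on chromosome 10 of GRCm38. The 250 bases before each start are shown because the Esr1 counts divide between the transcripts of these starts. They were taken from RefSeq's promoter table (GRCm38.p6, plus strand, 5′ to 3′) and cover chr10:4611739-4611988 and chr10:4709908-4710157. Capitals would mark a match to a hormone response motif, and there are none.
Esr1 upstream start: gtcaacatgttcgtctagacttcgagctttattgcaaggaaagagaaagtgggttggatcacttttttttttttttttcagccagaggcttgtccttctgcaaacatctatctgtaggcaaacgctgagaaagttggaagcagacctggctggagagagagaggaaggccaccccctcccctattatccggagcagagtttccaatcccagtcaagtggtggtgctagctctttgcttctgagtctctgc
Esr1 downstream start: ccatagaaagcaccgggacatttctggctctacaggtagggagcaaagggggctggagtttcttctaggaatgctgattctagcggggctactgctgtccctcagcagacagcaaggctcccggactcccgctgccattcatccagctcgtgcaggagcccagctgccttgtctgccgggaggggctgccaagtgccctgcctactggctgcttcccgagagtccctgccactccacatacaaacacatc

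The upstream window has a GC content of 47.6% and lies within the span of a noncoding Esr1 transcript. The downstream window has 59.6% and lies within the span of the transcripts from the upstream start. Its last bases also lie in the transcripts of the downstream start. Exon bounds were not read. The promoter table held 11 windows for 7 of the members and none for Nr3c1. Of these 11, 0 contained, on either strand, AGGTCA (the half-site of the estrogen response element), TCAAGGTCA (that half-site with the extension read by estrogen-related receptors, which includes AGGTCA), GGTCANNNTGACC (the full element) or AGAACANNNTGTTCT (the glucocorticoid response element). Of all 32851 windows of this length in the table, 14% held the half-site, 0.387% the extended half-site, 0.0639% the full element and 0.00913% the glucocorticoid element. The absence says only that these letters are not in these windows.

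The sum over all Esr1 transcripts varied little between libraries. It was 17.3, 16.1, 16.8, 18 and 14.3 CPM in DMSO replicates 1 to 5 and 17.2, 15.9, 16.5, 16.8 and 17.2 CPM in BPS replicates 1 to 5. The groups overlapped: the lowest and the highest library were both DMSO, replicates 5 and 4. Group means were 16.5 ± 1.41 for DMSO and 16.7 ± 0.53 for BPS (CPM ± SD, n = 5 each). The log2 fold change of BPS over DMSO was 0.018 (SE 0.056, 95% confidence interval -0.11 to 0.14), and the quasi-likelihood test of edgeR gave an adjusted p of 0.91 (Benjamini-Hochberg, over all tested genes). Without DMSO replicate 5 the fold change was -0.029.

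The deposited counts placed most of Esr1 on transcripts of the downstream start. That start took 446.5, 599.1, 664.0, 458.5 and 396.4 estimated counts in DMSO replicates 1 to 5, and 483.8, 534.5, 596.0, 401.2 and 580.6 in BPS replicates 1 to 5. The upstream start took 176.8, 13.7, 0.0, 223.0 and 100.4 counts in DMSO and 195.1, 0.0, 3.0, 185.2 and 14.3 in BPS. Both groups thus held libraries with many upstream counts and libraries with hardly any, and they overlapped. In both groups replicates 1 and 4 held the most. Over all libraries the downstream start held 83.3% of the Esr1 counts and the upstream start 14.7%, and transcripts without a GENCODE match held 2.02%. The downstream share was 81.9 ± 14.8% in DMSO and 85.1 ± 14.8% in BPS (SD, n = 5 each), a difference within the spread of either group.

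Within the downstream start, 1 transcript, NM_001302531.1, carried 83.2% of all Esr1 counts, from 66.7% to all of them by library. None of its stretches of 31 bases was absent from the other 4 matched transcripts (0 of 2582), while NM_001302532.1 of the upstream start had 1853 of its own. The share given to it therefore depends on how kallisto divided shared reads, and the split between starts is uncertain to that degree. The Esr1 total is firmer: kallisto divides whole reads among similar transcripts, and the 12 Esr1 transcripts summed to a whole number, within 0.02, in 10 of 10 libraries, so within that tolerance its sum left out no divided reads.

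**Figure D2:**
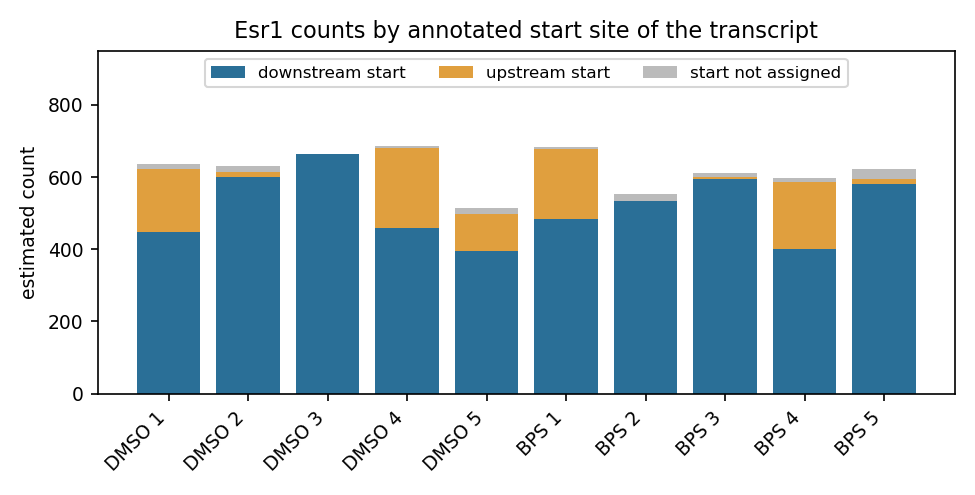
Estimated counts of Esr1 in each of the 10 libraries (vertical axis), stacked by the annotated start of the transcripts: downstream (blue), upstream (orange) and not assigned to a start (grey). The upstream part varies from 0.0 to 223.0 counts, within DMSO as within BPS, while the full bar stays between 513 and 685 counts.

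Esr2, which encodes estrogen receptor beta, was scarce and went untested by edgeR. It had 7, 7, 8, 6 and 15 counts in DMSO replicates 1 to 5 and 7, 5, 14, 7 and 5 in BPS replicates 1 to 5. DMSO replicate 5 and BPS replicate 3 stood above the other 8 libraries, which held 5 to 8 counts, and the groups overlapped. Group means were 0.23 ± 0.107 for DMSO and 0.207 ± 0.0993 for BPS (CPM ± SD, n = 5 each), and an exact two-sided permutation test over 252 regroupings gave p = 0.524, where the smallest possible p is 0.00794. All Esr2 counts lay on NR_104386.1, a transcript that GENCODE classes as a target of nonsense-mediated decay. Both coding transcripts, NM_207707.1 and NM_010157.3, were at 0.0 in every library. The 3 transcripts are nearly alike: of their stretches of 31 bases, NR_104386.1 had 48 of 3139 of its own. NM_207707.1 had 81 of 3312 and NM_010157.3 had 27 of 3258. At 5 to 15 counts per library, the split between them therefore depends on how kallisto divided shared reads and is uncertain. The Esr2 total was a whole number in 0 of 10 libraries, so some of its reads were divided with transcripts outside its sum, and its level is uncertain.

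Gper1 was at the edge of detection. It had 2, 2, 3, 1 and 5 counts in DMSO replicates 1 to 5 and 3, 3, 5, 3 and 0 in BPS replicates 1 to 5. Only DMSO replicate 5 and BPS replicate 3 exceeded 3 counts, the upper limit that a count of 0 allows. Group means were 0.0695 ± 0.043 for DMSO and 0.0763 ± 0.0487 for BPS (CPM ± SD, n = 5 each). At this depth counting alone gives a coefficient of variation of 60.9%, so a small difference could not be shown. No test was run for Gper1.

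Pgr, a gene that estrogen receptor alpha activates in many tissues, came closest to a difference between the groups. Its level was 34.6, 34.4, 36.7, 35.8 and 32.8 CPM in DMSO replicates 1 to 5 and 36.0, 38.3, 40.5, 38.5 and 43.3 CPM in BPS replicates 1 to 5. Of the BPS libraries 4 of 5 lay above every DMSO library, and BPS replicate 1 lay within the DMSO range. Group means were 34.8 ± 1.48 for DMSO and 39.3 ± 2.74 for BPS (CPM ± SD, n = 5 each). The log2 fold change was 0.17 (SE 0.047, 95% confidence interval 0.07 to 0.28). The unadjusted p was 0.00334, and the adjusted p of 0.0597 in edgeR's quasi-likelihood test missed the threshold of 0.05.

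Whether Pgr was called depended on the test. Its fold change stayed between 0.14 and 0.20 on the log2 scale over 20 fits, with adjusted p between 0.023 and 0.128 by edgeR, DESeq2 or limma-voom. It passed in the DESeq2 Wald test (adjusted p = 0.023) and in edgeR without BPS replicate 1 (fold change 0.20, adjusted p = 0.0231). Transcript NM_008829.2 held 97.5% of the Pgr counts. Tested singly among 37588 transcripts, it differed by 0.18 on the log2 scale (SE 0.051; edgeR adjusted p = 0.331). The summed level of the mural markers, nearly all of it Acta2, was also higher in every BPS library than in every DMSO library, and its part in the Pgr values was not tested.

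Nr3c1 was the most abundant member. It encodes the receptor for glucocorticoids such as corticosterone, and dexamethasone acts through it in the usual differentiation cocktail for preadipocytes. Its level was 134, 112, 128, 124 and 127 CPM in DMSO replicates 1 to 5 and 138, 88.1, 109, 121 and 128 CPM in BPS replicates 1 to 5. The groups overlapped: BPS replicate 1 was the highest of all libraries and BPS replicate 2 the lowest. Group means were 124.7 ± 8.22 for DMSO and 116.9 ± 19.4 for BPS (CPM ± SD, n = 5 each). The log2 fold change was -0.093 (SE 0.099, 95% confidence interval -0.31 to 0.12, adjusted p = 0.685 by edgeR), and leaving out single libraries gave -0.16 (without BPS replicate 1) to -0.0074 (without BPS replicate 2).

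Nr3c1 varied more between replicates than its depth accounts for. With 3066 to 5513 counts per library, counting alone would give a coefficient of variation of 1.49%, and the measured values were 6.59% in DMSO and 16.6% in BPS. Its dispersion exceeded the trend for its abundance by more than that of 98.5% of tested genes. Its 9 transcripts summed to a whole number in 0 of 10 libraries, so some of its reads were divided with transcripts outside the sum. No pair among 10923 transcripts without a gene made the sum whole in more than 7 libraries, so the missing transcripts were not identified. NM_008173.3 held 74.0% of the Nr3c1 counts, from 69.7 to 78.0% by library, and predicted transcripts held the rest.

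Nr3c2, the mineralocorticoid receptor, which also binds glucocorticoids with high affinity, was scarce but steady. It had 13, 16, 15, 16 and 16 counts in DMSO replicates 1 to 5 and 17, 15, 11, 14 and 14 in BPS replicates 1 to 5. The lowest and the highest library were both BPS, so the groups overlapped. Group means were 0.402 ± 0.0362 for DMSO and 0.387 ± 0.0535 for BPS (CPM ± SD, n = 5 each), with a log2 fold change of -0.053 (SE 0.164, 95% confidence interval -0.41 to 0.31, adjusted p = 0.936 by edgeR). The coefficient of variation was 9.0% in DMSO and 13.8% in BPS, below the 26.1% that counting alone would give. The interval follows the spread between libraries, so it is narrower than counting error allows. Changes within it, and some beyond it, cannot be told from none at this depth. The counts moved between transcripts from library to library: NM_001083906.1 held between none and all of them. Its 5 transcripts together gave whole totals in 10 of 10 libraries. Leaving out BPS replicate 3, the lowest, gave 0.028.

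Esrra encodes estrogen-related receptor alpha, a regulator of genes for oxidative phosphorylation and fatty acid oxidation. As summed from its 3 assigned transcripts, its level was 19.8, 21.6, 19.2, 15.2 and 12.5 CPM in DMSO replicates 1 to 5 and 18.4, 12.5, 13, 18.9 and 19.7 CPM in BPS replicates 1 to 5. DMSO replicates 4 and 5 and BPS replicates 2 and 3 were low, so both groups held high and low libraries, and they overlapped. Group means were 17.6 ± 3.72 for DMSO and 16.5 ± 3.47 for BPS (CPM ± SD, n = 5 each), with a log2 fold change of -0.095 (SE 0.166, 95% confidence interval -0.46 to 0.27, adjusted p = 0.822 by edgeR). Leaving out single libraries gave -0.196 (without DMSO replicate 5) to -0.011 (without BPS replicate 2).

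The spread of Esrra was far above counting error. Its coefficient of variation was 21.1% in DMSO and 21.0% in BPS, against 3.96% from counting, and its dispersion exceeded the trend by more than that of 97.1% of tested genes. Its sum was whole in only 2 of 10 libraries. Among 10923 transcripts without a gene, the pair XM_006527110.3 and XM_017318208.1 made it whole in 9 of 10, and the next best pair in 7. The first of this pair held 0.0, 0.0, 0.0, 162.4 and 162.4 counts in DMSO replicates 1 to 5 and 162.4, 324.8, 157.7, 0.0 and 0.0 in BPS replicates 1 to 5. The 5 libraries in which it had counts include the 4 lowest for Esrra. The gene of either transcript is not known here, and the pair was chosen after seeing the data. The value 162.4 of the first transcript recurs in DMSO replicates 4 and 5 and BPS replicate 1, and the reason was not tested. The level of Esrra with the pair added rests on such counts.

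With these 2 transcripts added, Esrra was nearly level across the libraries. It then stood at 20.6, 21.6, 21.9, 21.5 and 21.7 CPM in DMSO replicates 1 to 5 and at 22.6, 23.2, 22.5, 20.2 and 22 CPM in BPS replicates 1 to 5. Of the BPS libraries 4 of 5 lay above every DMSO library, but BPS replicate 4 was the lowest of all, so the groups still overlapped. The coefficient of variation was 2.35% in DMSO and 5.14% in BPS. Group means were 21.4 ± 0.507 for DMSO and 22.1 ± 1.14 for BPS (CPM ± SD, n = 5 each), with a log2 fold change of 0.045 (SE 0.038, 95% confidence interval -0.04 to 0.13, adjusted p = 0.60 by edgeR). Per length it had a median of 9.71 CPM per kilobase (9.01 to 10.3), above every library of Esr1.

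**Figure D3:**
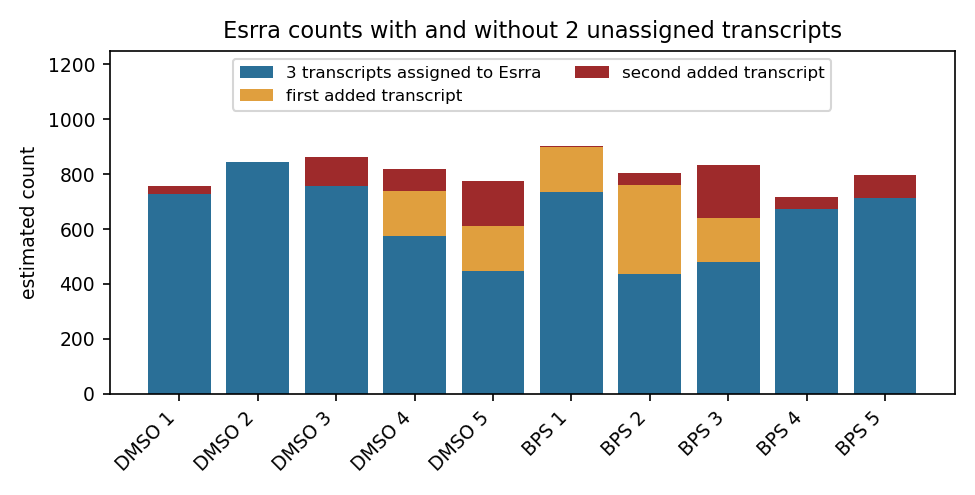
Estimated counts of Esrra in each of the 10 libraries (vertical axis): the 3 transcripts assigned to Esrra (blue) and 2 unassigned transcripts (orange and red). With these 2 added, the sum is a whole number of reads in 9 of the 10 libraries. The blue part ranges from 435 to 843 counts, and the first added transcript has counts in 5 libraries, among them the 4 in which the blue part is lowest.

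Esrrg, which encodes estrogen-related receptor gamma, a receptor of oxidative tissues such as heart and brown fat, had 0 counts in all 10 libraries on all of its 10 transcripts. A count of 0 allows up to 3 counts, which is 0.0752 to 0.0862 CPM in a single library and 0.0081 CPM over all libraries. These limits cover counting error only.

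Across the 5 tested receptors, 0 passed an adjusted p of 0.05 in the quasi-likelihood test of edgeR, against 4.88% of all tested genes. With so few genes that share is no result about them. At an unadjusted p under 0.05, 1 of the 5 passed (Pgr), against 18.8% of all tested genes. The DESeq2 Wald test called 1 (Pgr) and limma-voom called 0. Log2 fold changes were above 0 for 2 of the 5, against 50.2% of all tested genes. None of the 5 separated the groups completely, against 6.9% of all tested genes that did. Of 13 transcripts of the members that were tested singly 0 were called by edgeR, against 0.335% of all tested transcripts, and 2 had an unadjusted p under 0.05 (NM_008829.2 of Pgr and XM_006525664.1 of Nr3c1), against 6.83% of all tested transcripts.

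**Figure D4:**
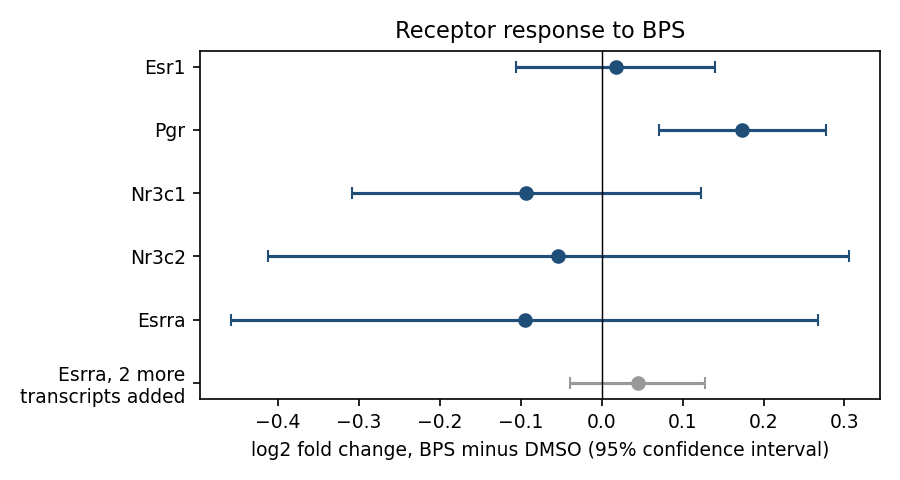
Log2 fold change of BPS over DMSO (horizontal axis) for the 5 tested receptors and for Esrra with 2 more transcripts; points are estimates from 5 against 5 libraries and bars are 95% confidence intervals. The bars of Esr1, Nr3c1, Nr3c2 and Esrra cross 0, and that of Pgr (0.07 to 0.28) does not, but it did not pass after adjustment. The bar of Nr3c2 is narrower than counting error allows.

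Genes around these receptors were read from lists of other receptors, chaperones, cofactors, steroid enzymes and target genes. The 8 lists held 132 genes, of which 109 were tested, 6 rose and 6 fell (adjusted p under 0.05 in edgeR's quasi-likelihood test). That is 11% of them, against 4.88% of all tested genes (3.06% higher and 1.82% lower), but the change of Cyp1b1 was known when the lists were drawn up. With library size alone as the scaling, 4 rose and 8 fell, and over all genes the share of calls that were higher went from 62.8% to 45.9%. The number of changed list genes was 7 without DMSO replicate 1, 7 without DMSO replicate 2, 6 without DMSO replicate 4 and 5 without BPS replicate 4. The median log2 fold change over all tested genes was 0.0004. The share of genes with an unadjusted p under 0.05, 18.8% over all tested genes, was 3 of 7 for other receptors, 2 of 17 for chaperones, 6 of 20 for coactivators, 4 of 11 for corepressors, 7 of 17 for steroid metabolism, 4 of 13 for estrogen receptor targets, 8 of 12 for glucocorticoid and mineralocorticoid receptor targets and 3 of 15 for estrogen-related receptor targets. The part of the mural marker sum, nearly all Acta2, which differed between the groups, in these changes was not tested.

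Of 11 other steroid-binding receptors 7 were tested, 1 rose and 0 fell, and the median log2 fold change was 0.062. Pgrmc2, a membrane-associated progesterone receptor component that binds heme, rose from 134.3 ± 2.27 CPM (mean ± SD of 5 libraries) to 142.7 ± 2.999 CPM, or by 0.088 on the log2 scale (SE 0.019; edgeR adjusted p = 0.0227). It lost its call with library size alone (adjusted p = 0.0605), without DMSO replicate 1 (0.0602) and without DMSO replicate 2 (0.0616), all by edgeR. Its paralog Pgrmc1 was the most abundant of the list, with mean levels of 230.7 (DMSO) and 231.3 (BPS) CPM.

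All 17 genes of the receptor chaperone list were tested. The median log2 fold change was -0.012, and 1 gene rose while 0 fell. Hspa4, a nucleotide exchange factor of the HSP70 system, rose from 387.3 ± 9.37 CPM (mean ± SD of 5 libraries) to 418.5 ± 11.2 CPM, or by 0.11 on the log2 scale (SE 0.022; edgeR adjusted p = 0.0149). Hspa8, the most abundant of the list, stood at 2304 ± 24.1 and 2322 ± 69.6 CPM.

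No cofactor passed the test with all libraries and TMM scaling. Of 20 coactivators 20 were tested and 0 were called by edgeR (median -0.043, 16 below 0), DESeq2 called 2 and limma-voom called 0. Ddx5, an RNA helicase that serves as a coactivator and is the most abundant of them, had mean levels of 678.6 ± 4.29 (DMSO) and 652.5 ± 14.6 (BPS) CPM (log2 fold change -0.056, SE 0.016; edgeR adjusted p = 0.072). It was called by DESeq2 (adjusted p = 0.00965) and by edgeR without BPS replicate 1 (0.0361). Other coactivators passed under an alternative, and were named for that after their values were seen: Ncoa6 in edgeR with library size alone (adjusted p = 0.0486), Prmt1 with upper-quartile scaling (0.0495), without BPS replicate 5 (0.023) and in DESeq2 (0.023), and Pprc1 without BPS replicate 1 (0.0424). Of 14 corepressors 11 were tested and 0 were called by edgeR, DESeq2 or limma-voom (median -0.037), while among the edgeR alternatives Hdac3 passed with library size alone (adjusted p = 0.0333) and Ncor1 without DMSO replicate 3 (0.0182). Tbl1x, the most abundant, had 220.5 ± 3.99 and 227.6 ± 5.59 CPM.

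Of 27 genes for local steroid metabolism 17 were tested, 1 rose and 3 fell, with a median of -0.015. Cyp1b1, which hydroxylates estradiol and is also a target of the aryl hydrocarbon receptor, was the most abundant of the list and changed most, with a log2 fold change of -0.64 (SE 0.043; edgeR adjusted p = 1.59e-05). H6pd, which supplies NADPH to the enzyme that regenerates active glucocorticoid, fell from 166.4 ± 1.40 to 155.0 ± 3.95 CPM (SD over 5 libraries, log2 fold change -0.10, SE 0.019, edgeR adjusted p = 0.0101). The gene of that enzyme, Hsd11b1, named after its values were seen, was scarce. It had means of 0.99 CPM in DMSO and 0.81 CPM in BPS, from 22 to 41 counts per library, and was not called. Akr1c14, a 3-alpha-hydroxysteroid dehydrogenase, rose from 29.3 ± 2.04 to 34.3 ± 1.93 CPM (log2 fold change 0.23, SE 0.051; edgeR adjusted p = 0.0266). Akr1c14 lost its call without DMSO replicate 1, 4 or 5 or BPS replicate 3, 4 or 5 (adjusted p up to 0.0664 by edgeR). The calls in this list fell from 4 to 2 without DMSO replicate 1 and without BPS replicate 4. Cyp19a1, the aromatase that makes estrogen from androgen, had 0 counts in all libraries.

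Of 16 estrogen receptor target genes 13 were tested, 1 rose and 1 fell, with 10 log2 fold changes above 0 and a median of 0.016. Ccnd1, the cell cycle regulator cyclin D1, rose from 303.3 ± 19.5 to 349.5 ± 16.6 CPM (SD, n = 5 each), with a fold change of 0.20 on the log2 scale (SE 0.044; edgeR adjusted p = 0.0214). Ccn5, a secreted matricellular protein, fell from 9.80 ± 1.13 to 7.37 ± 1.09 CPM (log2 fold change -0.41, SE 0.105, edgeR adjusted p = 0.0463). The groups overlapped for Ccnd1 and for Ccn5. Ctsd, a lysosomal protease and the most abundant of the list, stood at 509.7 ± 9.82 and 534.0 ± 13.5 CPM (log2 fold change 0.067, SE 0.020; edgeR adjusted p = 0.0825); it passed in the DESeq2 Wald test (0.027) and in edgeR without BPS replicate 5 (0.039). Ccnd1 lost its call without DMSO replicate 2, 3 or 4 or BPS replicate 2 or 4 (adjusted p up to 0.0556 by edgeR). Ccn5 lost its call without any 1 library other than BPS replicate 5, and with exact version matching (adjusted p up to 0.101 by edgeR). The list's calls ran from 0 to 3 over the alternatives.

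Of 13 target genes of the glucocorticoid and mineralocorticoid receptors 12 were tested, 2 rose and 2 fell, with a median of 0.015. Dusp1, a phosphatase that switches off MAP kinases, rose from 12.3 ± 0.863 to 15.8 ± 1.02 CPM (SD, n = 5 each), with a fold change of 0.36 on the log2 scale (SE 0.059; edgeR adjusted p = 0.0051). Errfi1, a feedback inhibitor of the EGF receptor, rose from 284.2 ± 9.82 to 312.0 ± 15.5 CPM (log2 fold change 0.13, SE 0.034; edgeR adjusted p = 0.0461). Klf9, a transcription factor, fell from 42.6 ± 0.753 to 39.9 ± 0.436 CPM (log2 fold change -0.094, SE 0.021; edgeR adjusted p = 0.0253), and Mt2, a metallothionein that binds metals, from 109.6 ± 3.25 to 98.4 ± 5.80 CPM (log2 fold change -0.16, SE 0.038; edgeR adjusted p = 0.0383). The called genes of this list thus moved in both directions, and the part of the 2 receptors in these changes was not tested. The groups overlapped for Errfi1 and Mt2 but not for Dusp1 and Klf9, and 6.9% of all tested genes had no overlap. Dusp1 kept its call in 19 of 19 alternatives. Klf9 lost its call without DMSO replicate 2 or 4 or BPS replicate 3 or 4 and without a filter (adjusted p up to 0.0704 by edgeR). Errfi1 lost its call without DMSO replicate 1, 2, 3 or 4 or BPS replicate 1, 2 or 4, with library size alone and in limma-voom (adjusted p up to 0.103 by edgeR). Mt2 lost its call without DMSO replicate 2, 3, 4 or 5 or BPS replicate 3, 4 or 5 and with exact version matching (adjusted p up to 0.0874 by edgeR). The list's calls ran from 1 to 5 over the alternatives.

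Of 17 target genes of the estrogen-related receptors 15 were tested and 0 were called by edgeR, DESeq2 or limma-voom. The median was 0.015. Atp5b, a subunit of the mitochondrial ATP synthase and the most abundant of the list, had mean levels of 827.9 ± 11.9 (DMSO) and 847.3 ± 10.02 (BPS) CPM (SD, n = 5 each), with a fold change of 0.034 on the log2 scale (SE 0.014; edgeR adjusted p = 0.231).

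**Figure D5:**
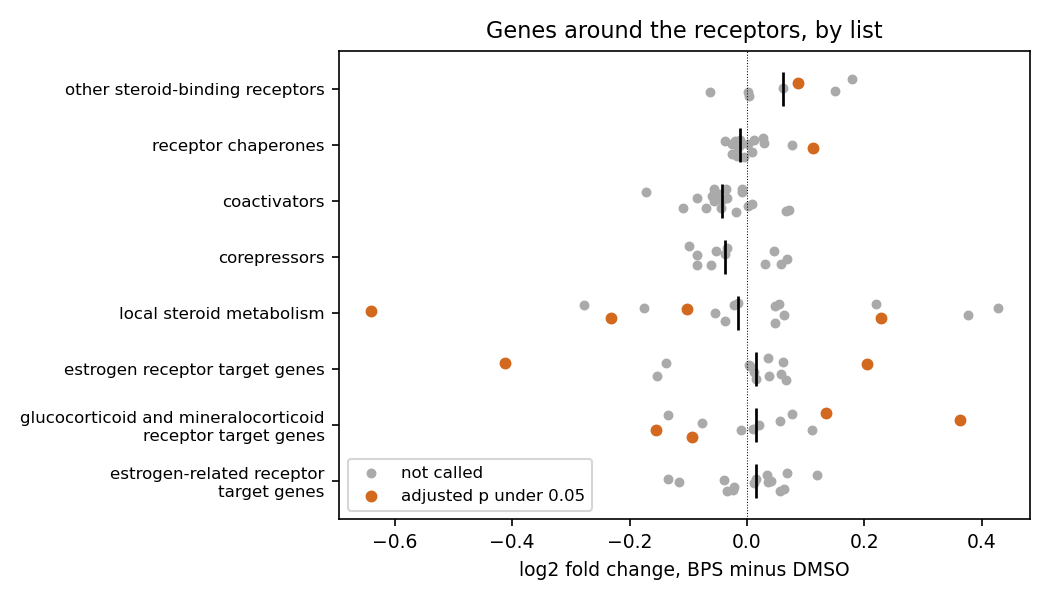
Log2 fold change of BPS over DMSO (horizontal axis) for each tested gene of the 8 lists (rows); orange points passed an adjusted p of 0.05, grey points did not, and black bars are list medians. The medians lie between -0.043 and 0.062, and the largest change is that of Cyp1b1, at -0.64.

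Genes whose level followed a receptor most closely over the 10 libraries are given as a description, since these values share libraries, treatment and depth. By Pearson's r of log2 CPM they were Slc11a2 (0.897), Plscr4 (0.89) and Nme7 (0.89) for Esr1, and Pgm5 (0.962), Ghr (0.957) and Plk2 (0.956) for Pgr. For Nr3c1 they were Pdcd6 (0.947), Hmgb1 (0.929) and Zcrb1 (0.925), and for Nr3c2 Eri2 (0.888), Spryd3 (0.877) and Ube2q1 (0.871). For Esrra they were Tbc1d12 (0.918), Dbt (0.904) and Rnpc3 (0.891), which follow its sum without the 2 added transcripts.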

How the data were processed

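RNA from 10 cultures was sequenced, 5 given DMSO and 5 given BPS. Per the labels' protocols, RNA was purified with RNeasy columns, and libraries were made with the NEBNext Ultra II directional kit. The deposited table holds estimated counts for 107384 RefSeq transcripts, made with kallisto 0.42.4 per the submitters' processing notes; the index, genome build and strand setting are not given in the sources used here. Chi-square per degree of freedom between replicates of a group was 4.13 to 8.77, so none was a copy.

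Accessions without version were matched to a RefSeq gene table (GRCm38.p6, for names only), giving 32903 genes from 86722 transcripts with 93.1% of the counts. The sums were rounded, filtered with filterByExpr, scaled by TMM (factors 0.9854 to 1.008) and tested with edgeR's quasi-likelihood test without covariates, Benjamini-Hochberg adjusted over 14597 genes; genes with an adjusted p under 0.05 are called. The standard error is the unshrunken log2 fold change over the square root of F, and the 95% interval uses the test's degrees of freedom. For Nr3c2, whose spread was below counting error, both are too small. The code was tested on simulated counts. The common biological coefficient of variation was 0.0588. Genes named are the members and, from each list, those called (up to 5) and the most abundant; for each tested member, the 3 genes most correlated with it among genes with a mean of at least 5 CPM. Of these, 1 gene is not reported here. The marker genes were named after their values were seen. The members and lists were chosen with earlier results of these data known. Tools were edgeR 4.0.16, DESeq2 1.42.0 and limma 3.58.1 in R 4.3.3, with Python 3.11.15. Alternatives were DESeq2 size factors, library size alone, upper-quartile scaling, no filter, a filter of 1 CPM in 5 libraries, a replicate block, limma-voom, the DESeq2 Wald test, exact version matching (46184 transcripts, 72.12% of counts) and leaving out each library. Adding 2 transcripts to Esrra was chosen after seeing the data.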

Additional observations from a re-analysis of the deposited data

Results flagged for a closer look

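In 50 groups of 5 values, 5 held a library that stood apart from the others by Dixon's criterion at the 95% level (critical value 0.71), where chance gives 2.5. For Esr2, DMSO replicate 5 stood at 0.4189 CPM against 0.1579 to 0.2028 CPM in the other DMSO libraries, and BPS replicate 3 at 0.3792 CPM against 0.1384 to 0.1973 CPM. These are 15 and 14 counts against 5 to 8, and the same 2 libraries held the most Gper1 counts of their groups, 5 each. Cyp1b1 stood at 635.7 CPM in DMSO replicate 3 against 563.1 to 583.3 CPM. Ccn5 stood at 11.79 CPM in the same library against 8.936 to 9.529 CPM. Dusp1 stood at 17.58 CPM in BPS replicate 2 against 15.11 to 15.67 CPM.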

How the results depend on the processing

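The count of 712 changed genes became 374 with the replicate block, 328 with exact version matching and 449 to 774 when 1 library was left out (449 without DMSO replicate 2, 462, 465 and 462 without BPS replicates 2, 3 and 4). The count of changed members, 0, became 1 with the DESeq2 Wald test and ran from 0 to 1 when 1 library was left out (1 without BPS replicate 1); both times it was Pgr. Changed list genes, 12, became 7 with the replicate block, 5 with exact version matching and 5 to 13 when 1 library was left out. Changed transcripts of the members stayed at 0 in each alternative run. The sign turned for Esr1 without DMSO replicate 5 (-0.029), Nr3c2 without BPS replicate 3 (0.028) and Esrra with 2 more transcripts (0.045); for Pgrmc1 with library size alone (-0.011), exact version matching (-0.0001747), and without DMSO replicate 3 (-0.0012), DMSO replicate 4 (-0.0018) or BPS replicate 1 (-0.0051); and for Hspa8 with library size alone (-0.0033) and without BPS replicate 1 (-0.0031). None of these genes was called in any fit, and the cause was not tested. Over all genes, libraries with the same replicate number did not deviate together (correlations 0.10, 0.0038, -0.067, 0.072 and -0.078). Such low values cannot exclude a pairing. Upstream Esr1 counts, whose split is uncertain, were highest in replicates 1 and 4 of both groups. Esrra was instead low in DMSO replicates 4 and 5 and in BPS replicates 2 and 3. With the block Pgr had an adjusted p of 0.119 by edgeR. The list genes without a call in it were Pgrmc2 (0.0675), Akr1c14 (0.0918), Ccn5 (0.0608), Errfi1 (0.053) and Klf9 (0.0984). Leaving out single libraries gave -0.029 to 0.050 for Esr1, -0.096 to 0.028 for Nr3c2, -0.0051 to 0.014 for Pgrmc1 and -0.0031 to 0.026 for Hspa8. Nr3c1 and Nr3c2 were not tested with exact version matching. Nr3c2 also dropped out under the CPM filter and received no adjusted p from DESeq2. The permutation test of Esr2 has no alternative. Depth limits Esr2, Gper1, Nr3c2 and Esrrg, at 0 to 17 counts per library.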
